A study of Mus musculus with 8 samples.

Results

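The genes described here are 53 members of the axon guidance families and the neuron navigators: 3 navigators, 15 semaphorins, 9 plexins, 7 ephrins, 9 Eph receptors, 2 Slits, 3 Robo receptors, 2 netrins and 3 netrin receptors. They were chosen by gene family, with their abundance in mesenchymal stem and progenitor cells (MSPCs) and their difference between genotypes in these same libraries in view, so that their values in that contrast are a description and carry no test. All 53 were found among the 52636 genes of the count table. The RNA came from the bone marrow of C57BL/6 mice, with 4 CTR mice (labelled CTL, Flk2-cre+ Cxcr4fl/+) and 4 cKO mice (Flk2-cre+ Cxcr4fl/fl), 1 library a mouse. Flk2-cre, which both groups carry, acts in multipotent progenitors and the blood cells that arise from them, so that in cKO mice CXCR4, the receptor for CXCL12, is lost from those cells and not from the MSPCs, while CTR mice keep 1 intact Cxcr4 allele there. All mice also carry GFP in the Kitl locus, by which the cells were sorted (CD45- Ter119- CD31- CD144- PDGFRα+ SCF-GFP+). The labels give an age of 6 weeks, whereas the methods give 8 to 20 weeks for the mice of the study. Each title also holds a number whose meaning the labels do not give: it lies between 26 and 32 for replicates 2 and 4 of both genotypes and between 67 and 86 for replicates 1 and 3.

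Axon guidance cues are proteins that attract or repel a growing cell process. Semaphorins signal through plexins, with neuropilins as co-receptors for the secreted class 3 members. Ephrins stay attached to the membrane and bind Eph receptor tyrosine kinases on a neighboring cell, so that signals can run both ways. Slits bind Robo receptors, and netrins bind Unc5 receptors and neogenin. Neuron navigators are large intracellular proteins that associate with microtubules in growing processes. The same families act outside the nervous system, among others in vessel growth, bone remodeling and cell migration.

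Total counts lay between 31047344 and 38216877 a library, and 18366 to 20684 genes had a count. Counts were scaled by the TMM method to CPM (counts for every 1000000 counts of the library), and levels of different genes are compared only as CPM per kilobase (kb) of merged exons. The 11 MSPC markers, among them Lepr, Cxcl12 and Kitl, were present in every library and summed to 55760 to 67940 CPM in CTR and 56840 to 68950 CPM in cKO. Of 12 endothelial markers 9 were under 1 CPM and Tek had no count, with sums of 5.27 to 14.6 CPM in CTR and 6.33 to 9.96 CPM in cKO. The 19 hematopoietic markers summed to 73.6 to 217 CPM in CTR and 166 to 269 CPM in cKO, led by hemoglobin genes, and Cd3e had no count. Of 12 glial and neuronal markers 11 were under 1 CPM and 5 (Ngfr, Nefl, Nefm, Rbfox3 and Syt1) had no count. The sum of that list, 39.5 to 45.3 CPM in CTR and 50.4 to 52.0 CPM in cKO, did not overlap between genotypes and came almost wholly from S100b.

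MSPCs carried transcripts of every one of the 9 families. A mean of at least 1 CPM was reached by 43 of the 53 members and of at least 10 CPM by 28. In CPM per kb the 5 highest were Efnb1 (71.5 ± 5.97), Slit3 (58.2 ± 5.61), Plxnd1 (39.1 ± 4.24), Plxnb2 (23.7 ± 2.21) and Plxna2 (20.9 ± 3.65, all SD over 8 libraries). Efnb1 and Slit3 lay at the 96.2 and 95.1 percentiles of all genes tested. Plxna2 and Ephb4 (20.7 ± 1.07), next to each other in the order, differed by less than their spread. Among ligands 1 membrane ephrin and 1 Slit thus stood far above the semaphorins, whose highest, Sema4c, had 13.3 ± 2.72 CPM per kb. Because these are bulk libraries, fewer cells with a transcript and less transcript per cell cannot be told apart.

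**Figure D1:**
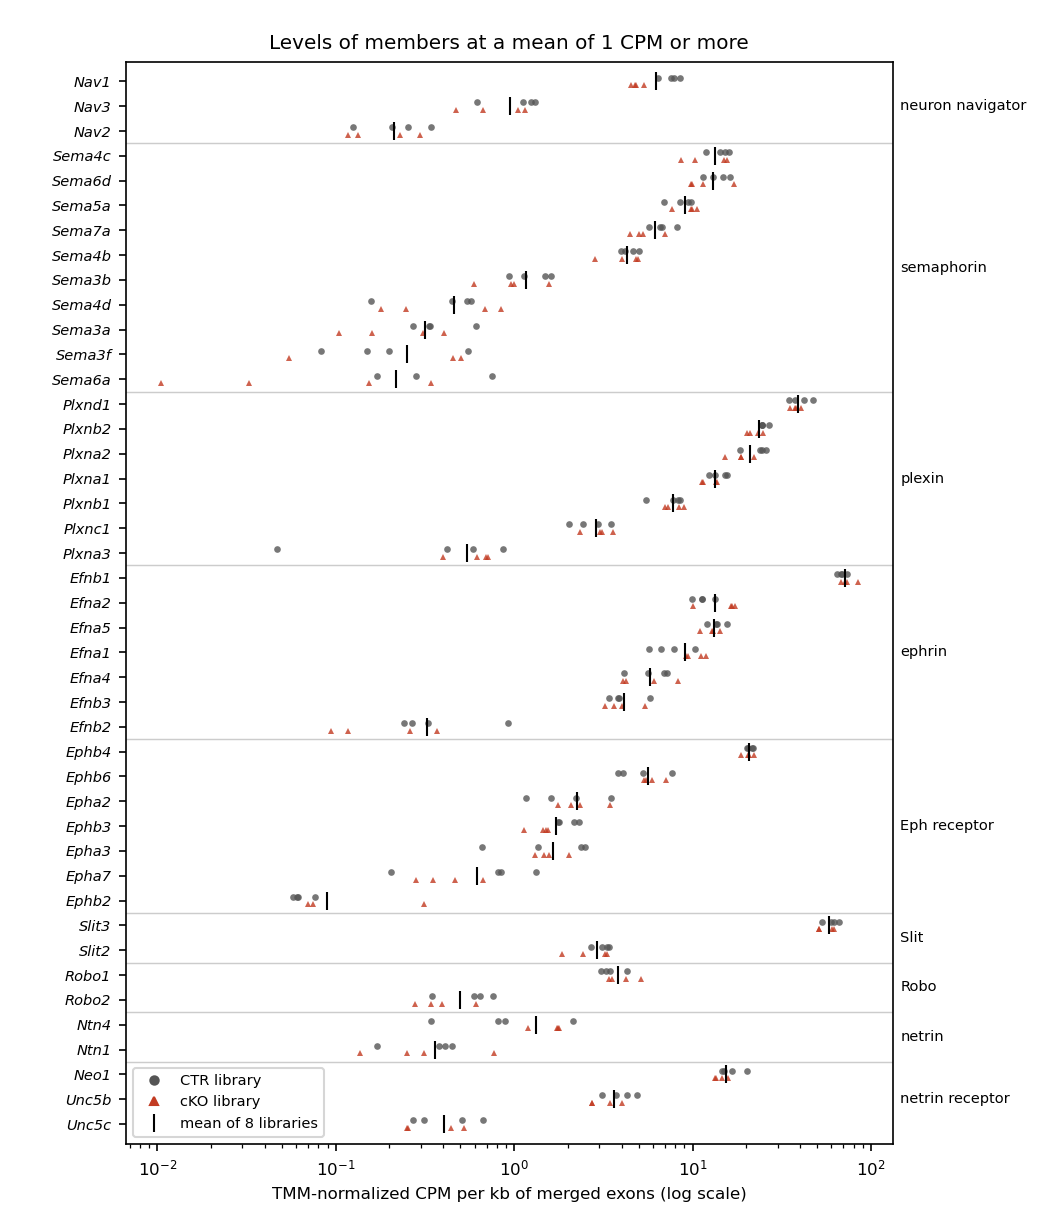
TMM-normalized CPM per kb of merged exons (log scale) for the 43 members with a mean of at least 1 CPM, by family, with a point for each CTR (circles) and cKO (triangles) library and a bar for the mean of 8 libraries; libraries with a count of 0 are not drawn. Efnb1 and Slit3 lie highest at 71.5 and 58.2, and in most families the highest member lies more than an order of magnitude above the lowest one drawn.

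Between genotypes, the quasi-likelihood test of edgeR, adjusted after Benjamini and Hochberg, called 0 of 14598 genes (0%) at 0.05, and thus none of the 40 members it tested. At an unadjusted p under 0.05 there were 646 genes (4.43%), and 3 of the 40 members, namely Nav1, Ephb3 and Plxna2. DESeq2's Wald test called 23 genes, and its likelihood ratio test with a term for the title number called 47, and Nav1 was the member called in each. Complete separation of the 4 cKO from the 4 CTR libraries was seen for 383 genes (2.62% of 14598) and 2 members, Nav1 and Ephb3, both lower in cKO. Since the members were picked with this contrast in view, nothing is read from these shares. Again as a description, of the 40 members 27 (67.5%) had a lower and 13 a higher value in cKO, beside 50.2% of all genes lower. The median log2 fold change of the members was -0.11, beside 0.00 for all genes. Their median absolute log2 fold change was 0.21, beside 0.14. Only Efnb2 had a log2 fold change of 1 or more in size.

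**Figure D2:**
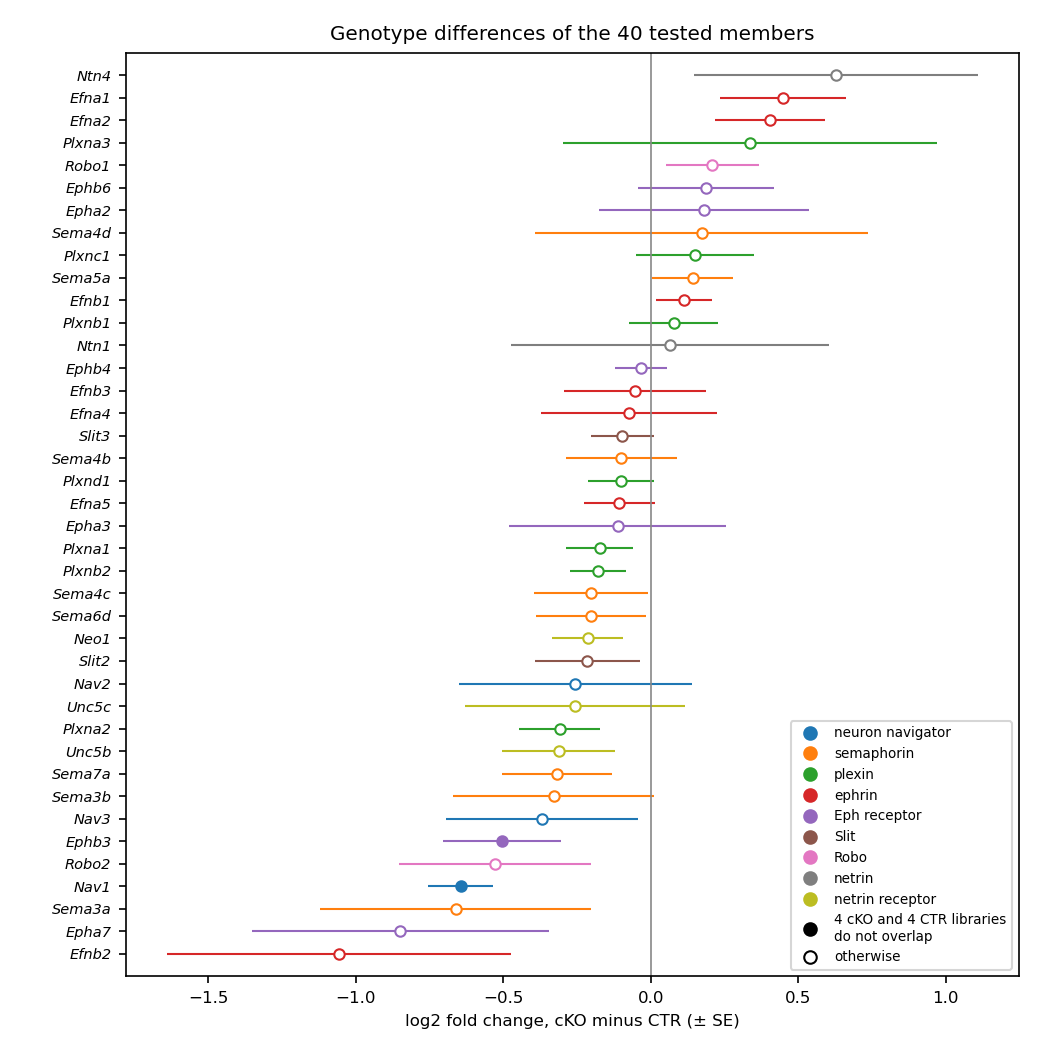
Log2 fold change (cKO minus CTR) with its standard error (SE) for the 40 tested members, colored by family; filled points mark members whose 4 cKO and 4 CTR libraries do not overlap. Nav1 (-0.64 ± 0.11) and Ephb3 (-0.51 ± 0.20) are the filled points, and Efnb2, Epha7 and Sema3a, further left, have much longer error bars.

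Among the neuron navigators Nav1, which associates with growing microtubule ends, was both the abundant member and the one whose genotypes lay furthest apart relative to their spread. Nav1 (ENSMUSG00000009418.15, GRCm38 chromosome 1 from 135434580 to 135607295, minus strand) stood at 136, 132, 147 and 111 CPM in CTR1 to CTR4. In cKO1 to cKO4 it stood at 78.3, 92.4, 82.0 and 83.4 CPM. The lowest CTR library was thus above the highest cKO library, and the means ± SD (n = 4 each) were 131 ± 15.1 CPM for CTR and 84.0 ± 6.00 CPM for cKO. By unadjusted p in edgeR Nav1 had rank 1 of the 14598 genes, but its adjusted p was 0.894. As the members were picked with this contrast in view, that rank is a description and no test. The log2 fold change was -0.64 ± 0.11 (SE), or 0.64 times the CTR level. The cKO libraries were lower within both title number groups, by a log2 difference of -0.46 (numbers 26 to 32) and -0.82 (67 to 86). It lay between -0.72 and -0.59 when any 1 library was left out. The exons of Nav1 share 589 of 17303 bases with Gm4793 on the opposite strand (159 to 275 counts a library) and 134 bases with Gm38399 on its own strand (193 to 494 counts), against 2555 to 4722 counts for Nav1.

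The other two navigators also had lower means in cKO, with overlapping libraries. Nav3, a close relative of Nav1, averaged 16.4 ± 4.72 CPM in CTR and 12.7 ± 4.84 in cKO, a log2 fold change of -0.37 ± 0.32 (SE). Nav2, known as a retinoic acid-responsive gene, had 7.49 ± 2.94 CPM and 6.27 ± 2.74 CPM, at -0.26 ± 0.40. Per kb of exon, Nav1 held 84.2% of the summed navigator level (6.22 ± 1.59 CPM per kb, beside 0.95 ± 0.32 for Nav3 and 0.21 ± 0.08 for Nav2).

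**Figure D3:**
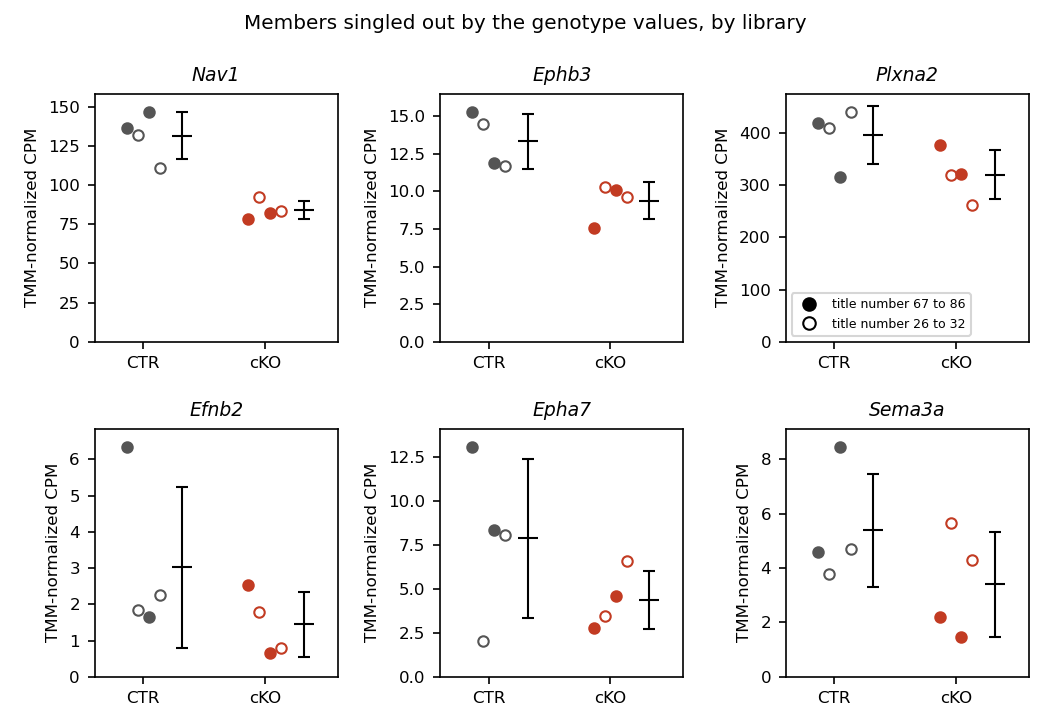
TMM-normalized CPM in each library for the 6 members picked for their genotype values (the 3 with an unadjusted p under 0.05 and the 3 with the largest log2 fold change), with mean ± SD (n = 4) beside the points; filled points have title numbers 67 to 86 and open points 26 to 32. Nav1 runs from 111 to 147 CPM in CTR and from 78.3 to 92.4 CPM in cKO, while the CTR mean of Efnb2 rests on 1 library at 6.34 CPM.

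Semaphorins are the ligands with the largest family here, and 8 of the 15 passed the filter of a count in every library. The transmembrane ligand of plexin-B2, Sema4c, was highest per kb, and stood at 54.5, 73.3, 69.4 and 65.1 CPM in CTR1 to CTR4 and at 47.4, 68.6, 39.7 and 72.0 CPM in cKO1 to cKO4. The genotypes overlapped (log2 fold change -0.20 ± 0.19 SE), and the lowest 3 values were all in libraries with title numbers 67 to 86. Sema6d, a transmembrane ligand of class A plexins, followed at 13.0 ± 2.78 CPM per kb, within the spread of Sema4c. Its means were 147 ± 21.7 CPM in CTR and 127 ± 35.8 in cKO. Sema5a, a transmembrane semaphorin with thrombospondin repeats, had 9.10 ± 1.28 CPM per kb. Its means were 162 ± 24.2 CPM in CTR and 178 ± 23.8 CPM in cKO. Among the tested semaphorins of the member list, it was 1 of the 2 with a higher mean in cKO. Sema6c, which is no member, also had a higher mean in cKO (12.6 CPM, beside 9.06 CPM in CTR). Sema7a, a membrane-anchored ligand of plexin-C1 and integrins, had 6.12 ± 1.22 CPM per kb (22.4 ± 3.32 CPM in CTR and 18.0 ± 3.67 CPM in cKO, log2 fold change -0.32 ± 0.19). Sema4b, also transmembrane, had 4.31 ± 0.72 CPM per kb and a log2 fold change of -0.10 ± 0.19.

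The secreted class 3 semaphorins were low. Sema3b had 1.16 ± 0.36 CPM per kb and a log2 fold change of -0.33 ± 0.34. Sema3a, the repellent that acts through neuropilin-1, stood at 4.59, 3.77, 8.45 and 4.71 CPM in CTR1 to CTR4 and at 2.21, 5.65, 1.45 and 4.29 CPM in cKO1 to cKO4. CTR3 was highest and cKO3 lowest, the genotypes overlapped, and the log2 fold change was -0.66 ± 0.46 (SE). Without CTR replicate 3 it was -0.36, and without cKO replicate 2 it was -1.02. Within title numbers 26 to 32 the difference was 0.20 and within 67 to 86 it was -1.56. The immune semaphorin Sema4d, a ligand of plexin-B1, lay between 1.21 and 6.46 CPM (log2 fold change 0.17 ± 0.56).

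The other 7 semaphorins failed the filter. Sema6a, a ligand of class A plexins, had 1.91 CPM on average and reached 213 counts in 1 library with none in another, and Sema3f, a ligand of neuropilin-2, had 1.30 CPM and 0 to 94 counts. Sema3d (137 counts over 8 libraries, 4 of them at 0) and Sema4a (116 counts, 5 libraries with a count) were below 1 CPM, as was Sema3g (19 counts in 2 libraries). Sema3c had 35 counts, all in CTR2. Sema3e, the ligand that binds plexin-D1 without a neuropilin, had no count in any library, which allows up to 0.0966 CPM in the shallowest library (3 counts, counting error only).

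Plexins, the semaphorin receptors, made up 3 of the 5 highest members. Plxnd1, the receptor of the undetected Sema3e, stood at 275, 309, 252 and 347 CPM in CTR1 to CTR4 and at 279, 273, 255 and 295 CPM in cKO1 to cKO4. CTR3 was lowest and CTR4 highest, with the cKO libraries between them (log2 fold change -0.10 ± 0.11 SE). Plxnb2, the receptor of Sema4c, averaged 194 ± 9.12 CPM in CTR and 172 ± 16.0 in cKO (-0.18 ± 0.09). Plxna2, which transduces class 3 and class 6 semaphorins, stood at 420, 410, 316 and 441 CPM in CTR1 to CTR4 and at 377, 321, 322 and 262 CPM in cKO1 to cKO4. CTR3 fell below 3 of the 4 cKO libraries, so that the groups overlapped, and the log2 fold change was -0.31 ± 0.14 (SE). By title number group it was -0.55 for 26 to 32 and -0.07 for 67 to 86. Plxna1, the related class A receptor, had 13.3 ± 1.58 CPM per kb and a log2 fold change of -0.17 ± 0.11. Plxnb1 (7.73 ± 1.11 CPM per kb) and the Sema7a receptor Plxnc1 (2.87 ± 0.56) had log2 fold changes of 0.08 ± 0.15 and 0.15 ± 0.20.

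Of the remaining plexins Plxna3 had 0.54 ± 0.25 CPM per kb and a range of 0.37 to 6.80 CPM, the highest ratio of highest to lowest library of the tested members (18.5). Plxna4 (0.83 CPM on average, 4 libraries with a count) and Plxnb3 (15 counts, all in 1 library) failed the filter. The exons of Plxna1 share 970 of 9054 bases with Gm26811 on the other strand (104 to 212 counts). Summed over the family, plexins had 114 ± 10.6 CPM per kb in CTR and 103 ± 2.47 in cKO. The co-receptor Nrp1, which is no member, had 83.7 CPM per kb, above every member, and Nrp2 had 23.8. Their log2 fold changes between genotypes were 0.02 ± 0.10 and 0.05 ± 0.10 (SE).

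All 7 ephrins among the members passed the filter, with 1 of them dominant. Efna3, which is no member, failed it and had 0.11 CPM per kb. Efnb1, a transmembrane ligand of EphB receptors, held 60.9% of the summed ephrin level per kb. It stood at 254, 234, 223 and 238 CPM in CTR1 to CTR4 and at 291, 248, 253 and 235 CPM in cKO1 to cKO4, with overlap and a log2 fold change of 0.11 ± 0.10 (SE). Efnb2, the ligand of EphB4 known for marking arteries, was the lowest ephrin of the member list at 0.33 ± 0.26 CPM per kb. It stood at 6.34, 1.84, 1.65 and 2.25 CPM in CTR1 to CTR4 and at 2.54, 1.80, 0.65 and 0.81 CPM in cKO1 to cKO4. CTR1 was far above the other 7 libraries, among which the genotypes overlapped. The log2 fold change of -1.06 ± 0.58 (SE), the largest of any tested member, was -0.40 without CTR replicate 1 and -1.48 without cKO replicate 1. Efnb3, the third transmembrane ephrin, had 4.15 ± 0.94 CPM per kb and a log2 fold change of -0.05 ± 0.24.

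Ephrins of class A, which are anchored to the membrane by a lipid, were led by Efna2 (13.3 ± 3.10 CPM per kb) and Efna5 (13.2 ± 1.40), which did not differ beyond their spread. Efna2 averaged 24.4 ± 2.99 CPM in CTR and 32.2 ± 7.20 in cKO, where 3 libraries lay between 35.2 and 36.7 CPM and cKO2 at 21.5 CPM (log2 fold change 0.40 ± 0.19). Efna1 averaged 14.0 ± 3.72 CPM in CTR and 19.1 ± 2.49 in cKO (0.45 ± 0.21), again with overlap. Efna5 and Efna4 (5.81 ± 1.59 CPM per kb) had log2 fold changes of -0.11 ± 0.12 and -0.07 ± 0.30. Higher means in cKO were thus found for Efna1, Efna2 and Efnb1, and lower ones for the other 4 ephrins of the member list.

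Among the Eph receptors Ephb4, the receptor of ephrin-B2, held 63.3% of the summed level per kb. It was the steadiest member, with 93.2, 101, 94.4 and 99.96 CPM in CTR1 to CTR4 and 102, 96.3, 87.1 and 94.4 CPM in cKO1 to cKO4. The genotypes overlapped almost fully (log2 fold change -0.03 ± 0.09 SE), and the biological coefficient of variation of 12.2% was the lowest of the 40 members. Ephb3, a related EphB receptor, stood at 15.3, 14.5, 11.9 and 11.7 CPM in CTR1 to CTR4 and at 7.57, 10.3, 10.1 and 9.60 CPM in cKO1 to cKO4. Every cKO library was below every CTR library, and the log2 fold change was -0.51 ± 0.20 (SE). Within the title number groups it was -0.37 (26 to 32) and -0.60 (67 to 86), and between -0.57 and -0.42 when any 1 library was left out. Epha7 stood at 13.1, 2.02, 8.32 and 8.05 CPM in CTR1 to CTR4 and at 2.79, 3.48, 4.58 and 6.61 CPM in cKO1 to cKO4. Its lowest value was CTR2, below all cKO libraries, while the other 3 CTR libraries were above them. The log2 fold change of Epha7 was -0.85 ± 0.50 (SE), -0.49 without CTR replicate 1 and -1.17 without CTR replicate 2.

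Ephb6, which lacks kinase activity, had 5.59 ± 1.33 CPM per kb (log2 fold change 0.19 ± 0.23). Epha2 (2.26 ± 0.84) and Epha3 (1.66 ± 0.61) followed, with log2 fold changes of 0.18 ± 0.35 and -0.11 ± 0.37. Ephb2, a receptor of B ephrins, had 1.12 CPM on average and 1 library at 0, and Epha4, which binds ephrins of both classes, had 0.55 CPM and 147 counts in 6 libraries. Epha5 had no count in any library.

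Slit3 and Slit2, secreted ligands of Robo receptors, both passed the filter. Slit3 stood at 375, 361, 322 and 402 CPM in CTR1 to CTR4 and at 367, 376, 312 and 310.2 CPM in cKO1 to cKO4, with overlap (log2 fold change -0.10 ± 0.11 SE). It held 95.2% of the Slit level per kb, beside 2.92 ± 0.55 CPM per kb for Slit2 (79.7 ± 8.04 CPM in CTR and 68.7 ± 17.7 CPM in cKO, -0.22 ± 0.18). Robo1, their receptor, stood at 50.7, 54.1, 57.0 and 71.2 CPM in CTR1 to CTR4 and at 56.0, 84.9, 58.7 and 69.7 CPM in cKO1 to cKO4, or 3.80 ± 0.70 CPM per kb, far below Slit3 and above Slit2. The genotypes overlapped (0.21 ± 0.16 SE). Robo2 averaged 9.99 ± 3.00 CPM in CTR and 6.92 ± 2.46 in cKO (-0.53 ± 0.33), and the endothelial receptor Robo4 had no count in any library.

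The netrins, laminin-related ligands, were the lowest family, with a summed level of 1.40 ± 0.64 CPM per kb in CTR and 1.99 ± 0.07 in cKO. Ntn4, a basement membrane netrin, stood at 3.04, 8.0, 1.27 and 3.35 CPM in CTR1 to CTR4 and at 4.47, 6.47, 6.61 and 6.63 CPM in cKO1 to cKO4. The highest and the lowest value were both in CTR, so that the log2 fold change of 0.63 ± 0.48 (SE) came with full overlap. Leaving out CTR replicate 2 gave 1.23, and leaving out CTR replicate 3 gave 0.33. Ntn1, the classical attractant, averaged 2.21 ± 0.78 CPM in CTR and 2.32 ± 1.76 in cKO (0.07 ± 0.54).

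Of the netrin receptors Neo1 and Unc5b exceeded both netrins per kb, and Unc5c lay below Ntn4 and within the spread of Ntn1. Neo1, the neogenin gene, whose product also binds repulsive guidance molecules, stood at 131, 145, 127 and 176 CPM in CTR1 to CTR4 and at 116, 137, 119 and 127 CPM in cKO1 to cKO4 (15.5 ± 2.21 CPM per kb). CTR4 stood apart at the top, and the rest overlapped (log2 fold change -0.21 ± 0.12 SE). Unc5b, a repulsive netrin receptor, had 3.61 ± 0.77 CPM per kb and 25.0 ± 4.77 CPM in CTR beside 20.2 ± 3.86 CPM in cKO (-0.31 ± 0.19). Unc5c, its relative, had 0.40 ± 0.16 CPM per kb (-0.26 ± 0.37). All 3 members had lower means in cKO. Unc5a, which is no member, had a higher one (12.5 ± 1.94 CPM, beside 11.3 ± 3.81 in CTR).

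Spread among mice was larger in the members of low abundance. The median biological coefficient of variation of the 40 tested members was 21.2%, beside 23.3% for all genes, and reached from 12.2% for Ephb4 to 61.3% for Plxna3. The 7 highest, from Sema3a at 45.3% through Ntn4, Epha7, Ntn1, Sema4d and Efnb2 to Plxna3, all had means under 10 CPM. Among single libraries CTR4 held the highest value of 11 and CTR1 of 7 of the 40 members, whereas cKO4 held none, and cKO3 held the lowest value of 10 and CTR3 of 9. The members were also long genes. Their annotated span had a median of 87.8 kb for the 40 tested, beside 24.3 kb for the 11818 tested protein-coding genes, and 20 of the 40 exceeded 100 kb, beside 13.6% of those genes. All 53 members together, tested or not, lay on 18 chromosomes.

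Upstream sequence was read from RefSeq's promoter table (GRCm38.p6, 1 start a gene), in which 45 of the 53 members matched (not Nav3, Sema3b, Sema3f, Sema6a, Plxna1, Plxna4, Efnb3 and Ntn1), as the 250 bases before the start. Only 27 of the 45 windows held no base of an annotated exon. Those of Nav1, Plxna2, Plxnb1, Sema3c, Sema4c and Unc5c lay wholly in exons, so that not every window is upstream of the annotated gene. All are kept in the medians and motif counts. In the 36 windows of members averaging 1 CPM or more, the median number of CG dinucleotides was 17.5, and their median ratio of observed to chance CG frequency was 0.68. In the 9 windows of members under 1 CPM these medians were 7.0 and 0.35, and in all 27025 promoters they were 6.0 and 0.38. The motif GGGCGG, on either strand, was in 27 of the 36 and 6 of the 9 windows, and in 32.9% of all promoters. The motif TATAAA, on either strand, was in 3 of the 36 and none of the 9, and in 13.0% of all. These counts describe letters in 1 window a gene, and the libraries do not tell which start a transcript used. Low abundance did not go with few CG dinucleotides in every member, as 3 windows without an annotated exon show. They are those of the highest member per kb, Efnb1 (chrX:99135811-99136060, plus strand), and of Epha5 (chr5:84417383-84417632, minus strand) and Sema3e (chr5:14025026-14025275, plus strand), which had no count. Written 5′ to 3′ with each CG in capitals, they hold 13, 20 and 7 CG dinucleotides.
Efnb1: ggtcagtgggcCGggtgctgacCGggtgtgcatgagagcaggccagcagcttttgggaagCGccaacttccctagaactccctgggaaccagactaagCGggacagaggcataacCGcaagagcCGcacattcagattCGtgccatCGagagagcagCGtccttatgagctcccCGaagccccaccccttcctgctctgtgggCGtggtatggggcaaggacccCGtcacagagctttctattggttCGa
Epha5: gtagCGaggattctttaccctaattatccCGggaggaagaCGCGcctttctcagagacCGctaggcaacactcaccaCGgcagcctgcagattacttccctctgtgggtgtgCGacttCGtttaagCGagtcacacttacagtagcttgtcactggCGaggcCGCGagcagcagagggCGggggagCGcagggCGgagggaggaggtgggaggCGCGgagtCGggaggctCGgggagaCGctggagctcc
Sema3e: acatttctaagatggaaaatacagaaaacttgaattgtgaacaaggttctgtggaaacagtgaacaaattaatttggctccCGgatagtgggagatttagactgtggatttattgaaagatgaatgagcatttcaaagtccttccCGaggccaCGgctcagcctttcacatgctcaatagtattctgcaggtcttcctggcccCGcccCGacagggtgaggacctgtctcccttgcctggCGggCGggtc

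The title number groups hold 2 libraries of each genotype each, and the members were not chosen on this contrast, so it was tested, with genotype as a term. No member passed the threshold. In the same edgeR test 2 of 14598 genes (0.0137%) were called, Cldn1 and Srgn, both lower in 67 to 86, and 0 of the 40 members. At an unadjusted p under 0.05 there were 1694 genes (11.6%) and 9 of the 40 members (22.5%), of which 6 were lower and 3 higher in 67 to 86. The adjusted p-values of these 9 in edgeR lay between 0.191 and 0.415. Groups did not overlap for 1003 genes (6.87%) and 2 members (5.0%), Unc5c and Efnb3.

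Unc5c had the smallest p of the members in this contrast. It stood at 9.81, 12.8, 10.1 and 8.48 CPM in CTR2, CTR4, cKO2 and cKO4 (26 to 32), and at 5.18, 5.96, 4.81 and 4.86 CPM in CTR1, CTR3, cKO1 and cKO3 (67 to 86). All 4 libraries with the higher numbers were below all with the lower ones, and the log2 difference was -0.98 ± 0.22 (SE, adjusted p = 0.191 in edgeR). DESeq2's Wald test, which called 380 genes in this contrast, called Unc5c as its only member (adjusted p = 0.000407). The other receptors with an unadjusted p under 0.05, none past the threshold after adjustment, were Unc5b (0.43 ± 0.14), Neo1 (-0.25 ± 0.09), Robo1 (-0.32 ± 0.12) and Robo2 (-0.64 ± 0.27). So all 3 netrin receptors of the member list and both tested Robo receptors were among the 9, with Unc5b opposite in sign to the rest. Unc5a, a tested netrin receptor that is no member, differed by only 0.12 ± 0.30 between the title number groups. The rest of the 9 were Ntn1 (1.06 ± 0.45, but 0.66 without cKO replicate 1 and 1.43 without CTR replicate 4), Sema4c (-0.42 ± 0.14), Sema5a (0.27 ± 0.11) and Nav3 (-0.66 ± 0.26). Nav1 differed by 0.04 ± 0.11 between these groups.

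Measures outside the members also differed by title number. Genes detected numbered 19363 to 20684 in 26 to 32 and 18366 to 18750 in 67 to 86. The 8 osteolineage markers summed to 11780 to 14750 CPM in 26 to 32 and 8699 to 11420 CPM in 67 to 86, mainly from Ibsp. The 11 MSPC markers summed to 55760 to 62710 CPM in 26 to 32 and 61310 to 68950 CPM in 67 to 86, and the 19 hematopoietic markers to 73.6 to 188 CPM and 138 to 269 CPM, both with overlap. The 12 endothelial markers (5.62 to 8.37 CPM and 5.27 to 14.6 CPM), the 12 glial and neuronal markers (43.0 to 51.1 CPM and 39.5 to 52.0 CPM), the 8 mural markers (137 to 216 CPM and 120.1 to 174 CPM) and the 6 chondrocyte markers (55.3 to 117 CPM and 67.7 to 97.4 CPM, with Acan, Col9a1 and Matn3 at 0) overlapped too. Their part in the member differences was not tested.

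**Figure D4:**
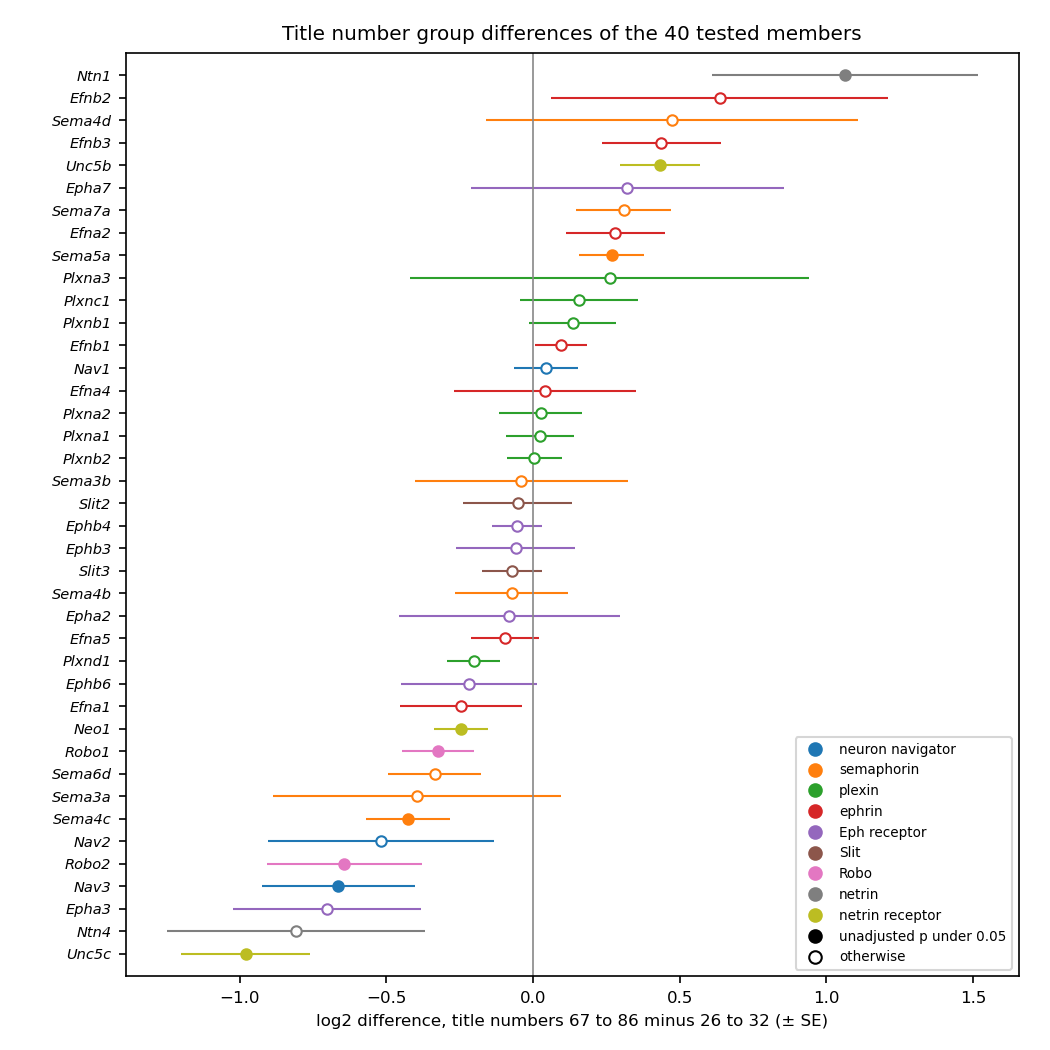
Log2 difference between libraries with title numbers 67 to 86 and 26 to 32, with its SE, for the 40 tested members, from a fit with genotype as a term; filled points have an unadjusted p under 0.05. Unc5c lies lowest at -0.98 and Ntn1 highest at 1.06 with a long error bar, and none of the 40 passed 0.05 after adjustment over all genes.

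Whether the genotype difference itself depended on the title number group was tested with an interaction term. In edgeR 0 of 14598 genes were called, with 502 (3.44%) at an unadjusted p under 0.05, and 3 of the 40 members (7.5%) were among the latter. These were Sema4d (-1.18 in 26 to 32 and 1.28 in 67 to 86), Sema3a (0.20 and -1.56) and Ephb6 (-0.24 and 0.70), each with an adjusted p of 1.00 in edgeR. Of the 40 members 25 had the same sign of the genotype difference in both title number groups.

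A list of 68 other axon guidance genes, made up of further ligands, receptors and intracellular effectors such as collapsin response mediators, was set beside the members, and 67 were in the table. Of the 47 that were tested 26 had a higher and 21 a lower value in cKO, with a median log2 fold change of 0.02. None was called, and 1 had an unadjusted p under 0.05, Dpysl4 (-1.0 ± 0.36 SE), beside 4.43% of all genes. Groups did not overlap for Dpysl4 and for Rac1 (-0.68 ± 0.34), which were named after their values were seen, beside 2.62% of all genes. Between the title number groups 0 of the 47 were called by edgeR. An unadjusted p under 0.05 was found for 5, beside 11.6% of all genes. Of these 5, 3 were higher and 2 lower in 67 to 86.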

How the data were processed

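RNA from sorted MSPCs of 8 mice, 1 library each, was analysed from the gene counts. The authors made these counts from poly(A) RNA, sequenced as paired reads, by trimming, alignment to GRCm38 (mm10) with HISAT2 and counting with HTSeq, and deposited them as raw counts per gene without normalization. Whether counting used strand was not given in the sources used here. GENCODE M21 gave symbols for 52403 of the 52636 genes by their Ensembl identifier, and also lengths and coordinates. It is not the release named in the methods. Low deposited counts favor odd numbers.

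Library sizes were scaled by TMM. The 14598 genes counted above 0 in all libraries (40 of them members) were tested with edgeR 4.0.16 (quasi-likelihood test, Benjamini-Hochberg adjustment, threshold 0.05) in R 4.3.3, without covariates for genotype and with genotype as a term for the title number group. This filter leaves out genes silent in any library. Differences within title number groups are of mean log2(CPM + 0.5). The SE was derived from the edgeR test, as the size of the log2 fold change divided by the square root of the F statistic. The fits were tested on simulated data. Alternatives were RLE scaling, other filters, DESeq2 1.42.0, a title number or replicate term, and each library left out in turn.

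Members and lists were chosen with earlier results of these data known. Every member is named. Values for each library are given for the highest member of each family per kb, members whose genotypes do not overlap or that have an unadjusted p under 0.05, and the 3 with the largest log2 fold change among tested members with a mean of at least 1 CPM. Members with an unadjusted p under 0.05 between title number groups were named after their values were seen.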

Additional observations from a re-analysis of the deposited data

Results flagged for a closer look

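In each genotype, the 4 libraries of the 43 members with a mean of at least 1 CPM were searched for 1 library far from the other 3 on the log2 scale (Dixon's ratio of gap to range above its critical value for 4 values). Of 86 groups 3 were found (3.49%), where chance gives about 1 in 20. Plxnb2 was at 208 CPM in CTR4 and between 189 and 190.0 CPM in the other CTR libraries, a small step in absolute terms. Efna2 was at 21.5 CPM in cKO2, with the other cKO libraries between 35.2 and 36.7 CPM. Ntn4 was at 4.47 CPM in cKO1, with the other cKO libraries between 6.47 and 6.63 CPM. No member's genotype difference differed between the title number groups after adjustment.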

How the results depend on the processing

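Between genotypes edgeR called 0 of all genes and 0 members with RLE scaling, with a term for the title number group, and in each fit without 1 library (there with 554 to 724 genes at an unadjusted p under 0.05). It called 1 gene with filterByExpr and 1 with no filter, G430095P16Rik in both, which is no member. DESeq2 called 23 genes with the Wald test and 47 with the likelihood ratio test and a term for the title number group, with 1 member, Nav1, in each. The labels do not say that replicate numbers pair the mice, and the correlations of same-numbered libraries (0.13, 0.18, 0.08 and 0.06) were not all over 0.1, so they were not taken as pairs. For 3 of 4 numbers both libraries correlated best with each other, and the mean correlation was 0.10 between libraries of the same title number group and -0.10 between the groups. Since deviations from each genotype's mean were correlated, the latter mirrors the former by construction and is no separate result. With the replicate block edgeR called 0 genes and 0 members (812 genes and 2 members at an unadjusted p under 0.05).

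Between title number groups the 2 called genes became 1 with RLE scaling, 4 with no filter, 0 without genotype as a term, 380 with DESeq2's Wald test, and 0 to 4 with each library left out (0 without CTR replicate 1, CTR replicate 2 or cKO replicate 4, and 4 without CTR replicate 3 or cKO replicate 3). Members called stayed at 0 throughout, except for 1 with DESeq2, Unc5c. The causes were not tested.

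Of 210 alternative genotype values of the 14 members given by library, 209 kept their sign. Ephb4 changed sign (-0.074 to 0.0058 with 1 library left out, the latter without cKO replicate 3). The 209 also moved by less than the spread between libraries. As leaving out 1 of 4 libraries can hardly move a mean that far, no stability is read from it. Small differences moved by over 1.5 times with 1 library left out. Without CTR replicate 3 and without CTR replicate 4 they were -0.28 and -0.11 for Neo1, -0.17 and -0.02 for Plxnd1 and -0.16 and -0.05 for Slit3. Robo1 was at 0.08 without cKO replicate 2 and 0.32 without CTR replicate 4, Sema4c at -0.06 and -0.34 without cKO replicates 3 and 4, and Efnb1 at 0.04 and 0.15 without cKO replicates 1 and 4. Members at 1 CPM per kb or more numbered 30, 31 with the length of the longest transcript and 30 with RLE scaling. With that length 8 of the 10 highest members and the leading member of 8 of the 9 families were the same, and Sema6d took the place of Sema4c. Members with a few reads per library, and any difference in the 3 without a count, are beyond the depth of these libraries.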
